A study of Mus musculus with 4 samples.

Results

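Neurexins, neuroligins and the leucine-rich repeat transmembrane proteins (LRRTMs) were followed through an RNA immunoprecipitation with an antibody against CPEB3, a cytoplasmic polyadenylation element binding protein that regulates translation of neuronal mRNAs. The genes were Nrxn2, Nrxn3, Nlgn1, Nlgn2, Nlgn3, Lrrtm1, Lrrtm2, Lrrtm3 and Lrrtm4, and every non-control array probe that the files name for one of them was taken, without regard to its signal. This gave 23 probes for 9 genes, of 34821 gene names and 55681 distinct probes on the array. A probe was tested if it was well above background on 2 or more arrays, which 22 of the 23 were.

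Both groups of arrays came from the same material, a lysate of cortex and hippocampus of male C57BL/6 mice aged 8 weeks, an inbred strain with no allele or treatment named. Beads loaded with CPEB3 IgG (2 arrays) or control IgG (2 arrays) stayed in the lysate for 3 h, and 0.2 ug of each precipitated RNA was amplified for 1-colour Agilent arrays read with the dye Cy3. Whether replicates are separate animals or lysates is not given, so the spread behind each p-value is that of these 4 samples and may be technical. No array of unprecipitated RNA was analysed here, and a value therefore compares one precipitate with the other, not with the RNA in the tissue. A level below is a probe's processed signal relative to the 75th percentile of its array, in log2, and a difference is the mean level with CPEB3 IgG minus that with control IgG. Probes are named by their position on the annotated transcript in bases from the 5′ end, and levels of different probes were not set against each other because probes differ in how well they hybridise.

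As background, neurexins are receptors of the presynaptic membrane, and their partners across the synaptic cleft include the neuroligins and the LRRTMs of the postsynaptic membrane. These pairs organise the release machinery on one side and the receptors on the other, with neuroligin 1 known for excitatory synapses, neuroligin 2 for inhibitory synapses and neuroligin 3 for both. Cytoplasmic polyadenylation element binding proteins recognise U-rich sequences in the 3′ untranslated regions of mRNAs.

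The array probe of Cpeb3, at position 5732, read 4.22 and 3.85 on the CPEB3 IgG arrays against 1.28 and 0.91 on the control arrays, a 7.71-fold higher mean. Replicate arrays correlated at r = 0.986 within CPEB3 IgG and r = 0.977 within control IgG, against 0.925 to 0.939 between arrays of different groups. All 30 listed markers of excitatory and inhibitory neurons, astrocytes, oligodendrocytes, microglia and endothelial cells were well above background on all 4 arrays. Of these 30, 2 were called higher and 7 lower with CPEB3 IgG, where 15.8% of all tested probes were higher and 18.9% lower. The summed linear signal of the 5 excitatory neuron markers was 70.9 and 99.2 times the 75th percentile with CPEB3 IgG and 113.9 and 121.7 times with control IgG. It was also below both controls for inhibitory neuron (65.4 and 86.8 against 117.9 and 120.7), astrocyte (12.4 and 15.1 against 32.3 and 39.8), oligodendrocyte (96.1 and 115.4 against 119.8 and 146.0) and endothelial markers (9.66 and 10.8 against 11.2 and 12.7). For microglia markers the groups overlapped, at 27.5 and 36.5 against 25.8 and 29.6. The median difference of the 5 markers was above 0 for astrocytes (0.49), endothelial cells (0.11) and excitatory neurons (0.10), and below 0 for inhibitory neurons (-0.87), microglia (-0.35) and oligodendrocytes (-0.12). The part of these marker differences in the results below was not tested.

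The array reads each mRNA through short stretches of sequence, and those behind the largest differences, with probes of the same genes that were not called, show what each value measures. Each line gives the 30 bases of the 60-base probe that are richest in T, read on the strand of the transcript from 5′ to 3′, with runs of at least 4 T in capitals. Coordinates are those of the whole probe in the files, on mm9.
Nrxn2 at 5567, chr19:6532125-6532184, plus strand: gacaaagagtattacgtctgagcacccagt
Nrxn2 at 6598, chr19:6533156-6533215, plus strand: aatgtgtgggaaaaagaaaacaaaaacttt
Nlgn1 at 686, chr3:25599157-25599216, minus strand: accatctcagttgcTTTTcaagccttaaga
Nlgn1 at 5447, chr3:25330886-25330945, minus strand: cccTTTTTcaagaatcgaaagcttattata
Nlgn3 at 3792, chrX:98516599-98516658, plus strand: cccatggagtttgtcctttgtaaaaaTTTT
Lrrtm3 at 1484, chr10:63551133-63551192, minus strand: tgttccctggtaaactggctgagaagTTTT
Lrrtm3 at 2849, chr10:63392188-63392247, minus strand: tgcttactgcatagggTTTTatctacttgt
Lrrtm4 at 2734, chr6:80759820-80759879, plus strand: atcgaagtgtatattcacacagtacacatt
Which exon or untranslated region holds a probe was not analysed here, because no annotation of that build was used.

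With CPEB3 IgG, 11 of the 22 tested probes were higher and 1 was lower (limma, Benjamini-Hochberg adjusted p under 0.05 over all 40632 probes tested). By gene, 8 of the 9 had a higher probe. Of the 9, 7 had several tested probes, and no share of genes was computed over the array to set beside this count. The share of higher probes was 50%, against 15.8% of all tested probes and 22.6% of those on RefSeq mRNAs. Higher probes made up 45.5% of all calls, but 84.7% under spike-in scaling. The share of lower probes was 4.55%, against 18.9% of all tested probes. The median difference of the 22 probes was 0.67 on the log2 scale, and that of all tested probes was -0.19. In 14 of the 22 probes both CPEB3 IgG arrays lay above both control arrays, which held for 28.6% of all tested probes. The exception among the genes was Nlgn1, whose only called probe was lower. By family, 3 of 9 neurexin probes, 3 of 6 neuroligin probes and 5 of 7 tested LRRTM probes were higher, with median differences of 0.24, 0.64 and 0.97.

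Leaving out either CPEB3 IgG array ended most of these calls. Such a fit leaves 1 array in that group, so a call can be lost with little change in the difference. At Lrrtm1 position 2388 the difference was 1.20 with all arrays, and 1.20 and 1.21 without replicate 1 or 2. At Lrrtm2 position 5597, where it moved more, it was 0.97, then 1.19 and 0.76. Every called probe kept its sign. Without CPEB3 IgG replicate 1, 1 of the 22 probes was called higher (Lrrtm4 at 2734), and without replicate 2 there were 2 (that probe and Lrrtm3 at 2849), with none lower. Over the whole array the higher calls went from 6423 to 2348 and 2968. Ordered by difference, from Lrrtm4 at 2734 down to Nlgn1 at 686, each probe's 95% interval overlapped that of its neighbours.

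**Figure D1:**
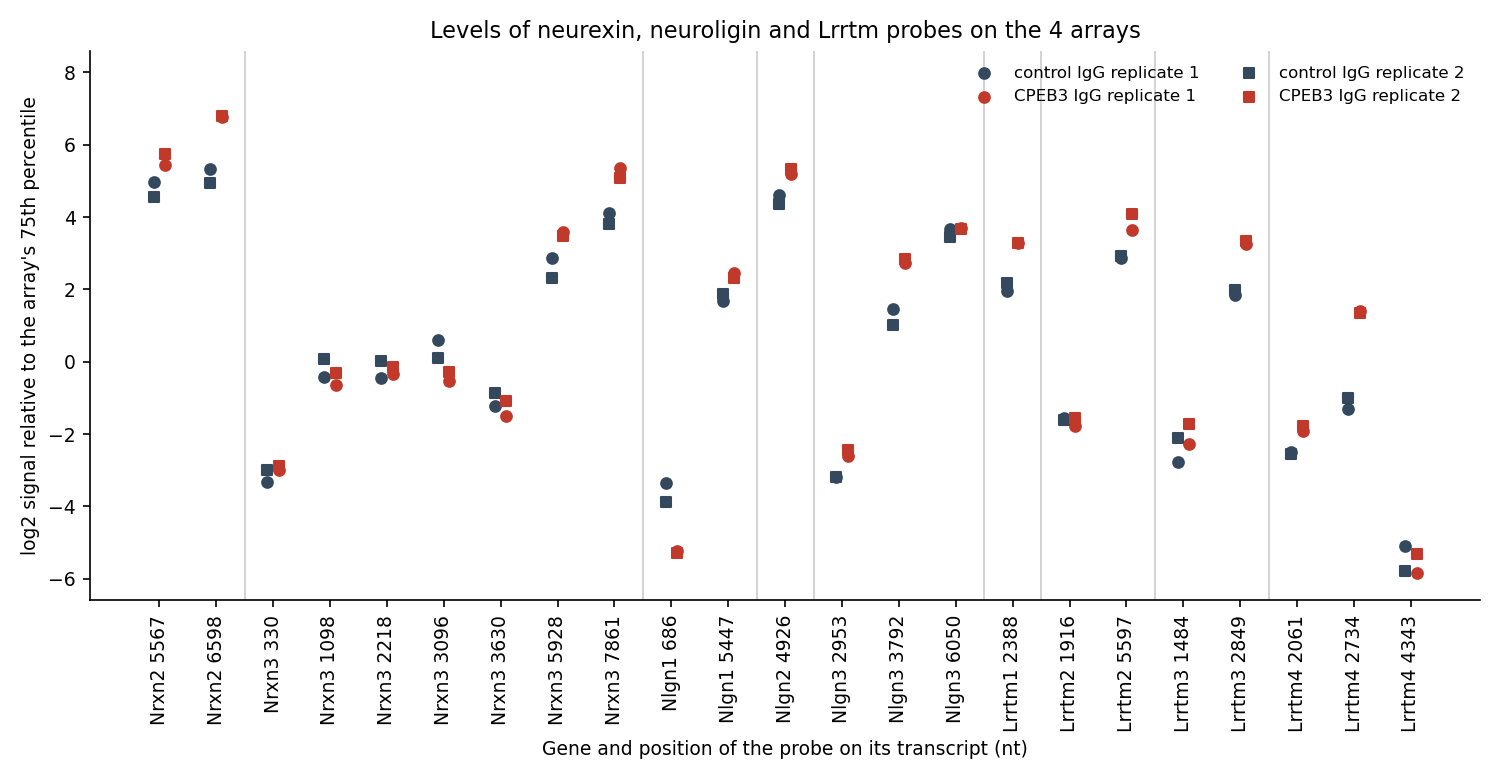
Levels (log2 signal relative to the 75th percentile of the array, vertical axis) of all 23 probes, 1 column per probe, with CPEB3 IgG in red, control IgG in dark blue, circles for replicate 1 and squares for replicate 2. The widest gap between the groups is at Lrrtm4 position 2734, at 1.39 and 1.34 against -1.30 and -1.02, and at Nlgn1 position 686 the order of the groups is turned.

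Nrxn2 encodes neurexin 2 and lies on the plus strand of chromosome 19. Its probe at position 6598 read 6.77 and 6.79 in the CPEB3 precipitates and 5.34 and 4.94 in the control precipitates. Both CPEB3 IgG values lay above both controls, and the difference was 1.64 ± 0.21 (n = 2 per group). Here and throughout, ± gives limma's moderated SE, which also draws on the variance of all tested probes, and the 95% intervals use it. The mean was 3.12-fold higher (95% interval of the log2 difference 1.09 to 2.19, adjusted p = 0.00883). The difference exceeded that of 94.7% of all tested probes. The other probe, 971 bases upstream at position 5567, read 5.43 and 5.74 against 4.98 and 4.55. Its groups did not overlap either, but its difference of 0.82 ± 0.24 missed the threshold (95% interval 0.19 to 1.45, adjusted p = 0.0586), and it was called under 6 of 13 other settings.

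Nrxn3, the gene of neurexin 3, had 7 probes spread over 1540097 bases of the plus strand of chromosome 12, all of them tested. Its last probes by position were called higher and the 5 before them were not. At position 7861 (chr12:91573315-91573374) the levels were 5.35 and 5.08 for CPEB3 IgG against 4.13 and 3.82 for control IgG. This was a difference of 1.24 ± 0.21, or 2.37-fold (adjusted p = 0.0159). The probe at 5928 (chr12:91571382-91571441) read 3.60 and 3.49 against 2.87 and 2.30, a difference of 0.96 ± 0.25 (adjusted p = 0.0452). Again no CPEB3 IgG value was below a control value at either probe, which lie 1873 bases apart. The call at 5928 was lost under 6 of 13 other settings, including quantile scaling and no scaling.

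The remaining Nrxn3 probes lay at least 49.29 kb upstream of these. At position 3096 (chr12:91407414-91407473) the control arrays were the higher ones, with -0.53 and -0.27 for CPEB3 IgG against 0.60 and 0.11. Its difference of -0.76 ± 0.24 did not pass (95% interval -1.40 to -0.11, adjusted p = 0.0745). Positions 1098, 2218 and 3630 gave differences of -0.30, -0.02 and -0.25 with groups that overlapped. Their 95% intervals reached from -0.97 to 0.61. These 3 values changed sign under spike-in scaling, which raised the median of all probes by 0.64, and the one at 2218 also under quantile and median scaling. At position 330 the levels were -2.99 and -2.88 against -3.34 and -3.01, a difference of 0.24 (95% interval -0.28 to 0.76). Within the one gene, differences therefore ranged from -0.76 to 1.24. The position 2218 is counted on an Ensembl transcript, whose probe lies between those at 330 and 1098 of the RefSeq transcripts on the chromosome.

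Nlgn1 encodes neuroligin 1. Its probe at position 686, which the files assign to a single cDNA clone, was not well above background on either CPEB3 IgG array. The measured levels were -5.24 and -5.28 for CPEB3 IgG against -3.35 and -3.87 for control IgG. The measured mean was 3.14-fold lower (95% interval of the log2 difference -2.28 to -1.03, adjusted p = 0.0112). The bound computed for a dim group equalled this measured value, so it sets no minimum. This probe was not called under spike-in scaling, with normexp background correction or without either CPEB3 IgG array, and the filter on all 4 arrays left it out. Its measured difference, -1.65 in the main setting, was -1.01 under spike-in scaling and -0.36 with normexp, so the 3.14-fold value is that of the main setting. The second probe, at 5447 and 268.2 kb farther along the gene, read 2.46 and 2.31 against 1.67 and 1.87. There the CPEB3 IgG arrays were higher without overlap, yet the difference of 0.62 ± 0.17 missed the threshold (95% interval 0.15 to 1.09, adjusted p = 0.0563) and passed it under 4 of 13 other settings. The 2 probes belong to different transcripts in the files, so the difference between them was not tested.

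Nlgn2, for neuroligin 2, had 1 probe, at position 4926 (chr11:69636641-69636700, minus strand). It read 5.18 and 5.32 for CPEB3 IgG against 4.61 and 4.36 for control IgG, a difference of 0.77 ± 0.18, or 1.70-fold (adjusted p = 0.0361). Neither CPEB3 IgG array came down to a control level. This call was lost under 7 of 13 other settings, among them leaving out any of the 4 arrays (adjusted p from 0.0705 to 0.134).

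Neuroligin 3 (Nlgn3) had 3 probes close together on the plus strand of the X chromosome. At position 3792 the levels were 2.73 and 2.85 against 1.45 and 1.03, and the difference was 1.55 ± 0.21, or 2.93-fold (95% interval 0.98 to 2.12, adjusted p = 0.0107). Position 2953 (chrX:98515760-98515819), 779 bases upstream, had -2.61 and -2.45 against -3.20 and -3.19, a difference of 0.66 ± 0.16 (adjusted p = 0.0404) that was lost under 9 of 13 other settings. The groups were separate at both positions. In contrast, the probe at 6050, named from an Ensembl transcript, read 3.69 and 3.66 against 3.68 and 3.46. Its difference was 0.11 ± 0.17, with a 95% interval of -0.34 to 0.57 that lies below the interval at 3792, though the 2 transcripts kept this pair out of the test between probes. That probe shares a stretch of 16 bases with 26 other probes on the array, all named for other genes, while the probe at 3792 shares one with 1.

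Lrrtm1, a leucine-rich repeat protein that binds neurexins, had 1 probe at position 2388 (chr6:77195379-77195438, plus strand). Its levels were 3.29 and 3.28 for CPEB3 IgG against 1.97 and 2.19 for control IgG. Here the groups stood apart by more than their spread, with a difference of 1.20 ± 0.17, or 2.30-fold (adjusted p = 0.0113). The call was lost only when a CPEB3 IgG array was left out, among 13 other settings.

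Lrrtm2, also a neurexin ligand, lies on the minus strand of chromosome 18. Its distal probe at position 5597 read 3.65 and 4.09 against 2.86 and 2.93, a difference of 0.97 ± 0.21, or 1.96-fold (95% interval 0.40 to 1.55, adjusted p = 0.0307). It was not called under 7 of 13 other settings. The probe at 1916, 3621 bases away, had -1.79 and -1.55 against -1.56 and -1.61. These groups overlapped and the difference was -0.08 (95% interval -0.55 to 0.39). The sign of that small value turned under quantile, median and spike-in scaling.

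Lrrtm3 also had a called and an uncalled probe, on chromosome 10 with 158.9 kb between them. The limma test between these 2 probes missed the threshold (adjusted p = 0.0744). At position 2849 the levels were 3.27 and 3.33 for CPEB3 IgG against 1.85 and 1.99 for control IgG, a difference of 1.38 ± 0.16, or 2.60-fold (95% interval 0.94 to 1.81, adjusted p = 0.00786). This call was lost under 1 of 13 other settings, without CPEB3 IgG replicate 1 (adjusted p = 0.0506). At position 1484 the arrays read -2.29 and -1.73 against -2.76 and -2.12. The groups overlapped there, and the difference of 0.43 had a 95% interval of -0.44 to 1.31.

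Lrrtm4, a neurexin and heparan sulfate proteoglycan ligand of excitatory synapses, held the largest difference among the 22 probes. At position 2734 the CPEB3 IgG arrays read 1.39 and 1.34 and the control arrays -1.30 and -1.02. The groups were far apart relative to their spread, with a difference of 2.52 ± 0.18, or 5.75-fold (95% interval 2.04 to 3.01, adjusted p = 0.00527). That value exceeded the difference of 98.8% of all tested probes, and it was the one member probe called under all 13 other settings. At 2061 (chr6:80759124-80759183), 636 bases upstream on the chromosome, the levels were -1.91 and -1.77 against -2.49 and -2.55. This difference of 0.68 ± 0.16 passed (adjusted p = 0.0369) but was lost under 8 of 13 other settings. The third probe, at 4343 of another Ensembl transcript and 783.3 kb upstream, was not well above background on any array and was not tested.

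**Figure D2:**
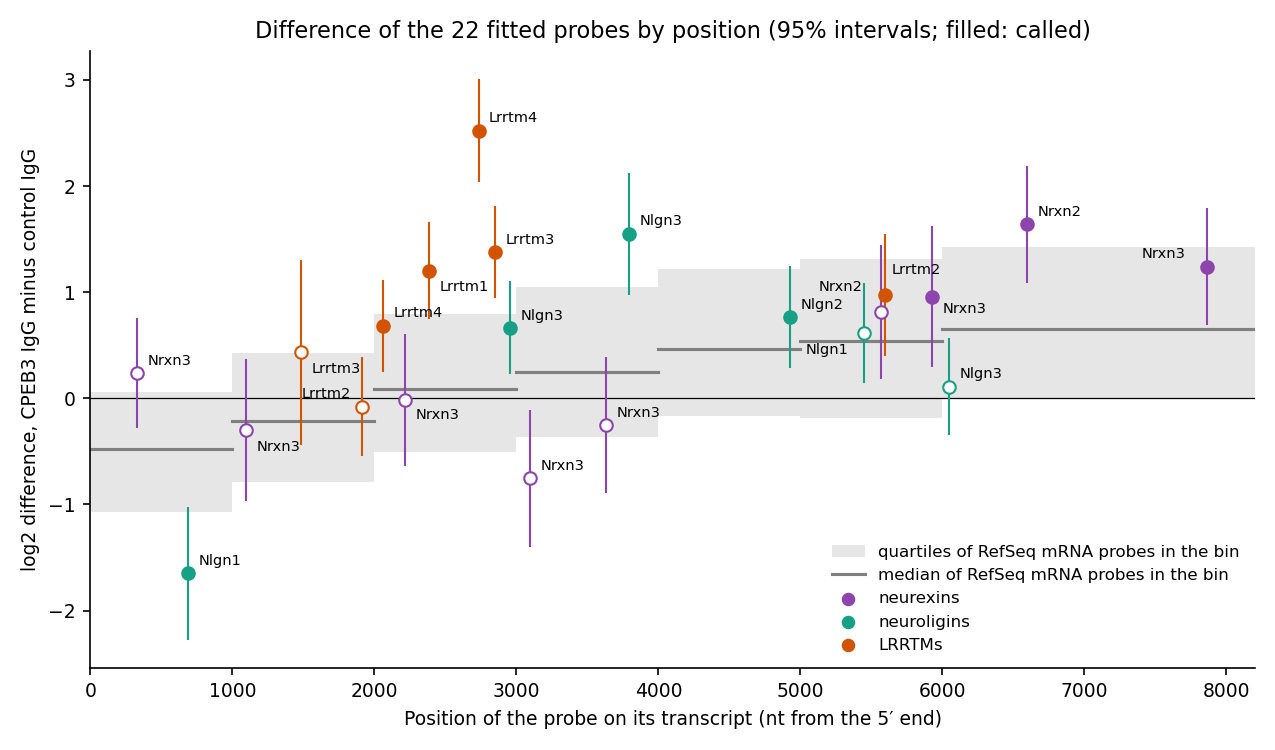
Difference (log2, CPEB3 IgG minus control IgG, with 95% intervals) of the 22 tested probes against their position on the transcript in bases, filled where called. Grey bands give the quartiles and lines the median of probes on RefSeq mRNAs in the same range of positions, which climb from -0.48 within the first 1000 bases to 0.65 beyond 6000.

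Over probes on RefSeq mRNAs the share called higher went up with the position on the transcript. Before position 2000, 0 of 5 tested probes of these genes were higher, against 13% of probes on RefSeq mRNAs. Between 2000 and 3000, 5 of 6 were higher against 25.5%, between 3000 and 4000, 1 of 3 against 32.7%, and beyond 4000, 5 of 8 against 42%. The 6 probes from 2000 to 3000 had a median difference of 0.94, where the RefSeq probes had 0.09, and the 3 from 3000 to 4000 had -0.25 against 0.25. The 5 calls between 2000 and 3000 were of 4 LRRTM probes and 1 neuroligin probe. Not all of these positions are on RefSeq mRNAs, unlike those they are set against. Lrrtm4 at 2061 and 2734, both called, and Nrxn3 at 2218 are placed on Ensembl transcripts. The same holds for Nlgn3 at 6050, and Nlgn1 at 686 is placed on a cDNA clone. Positions on transcripts of different length are not the same distance from the 3′ end, which was not analysed here.

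The difference between 2 probes of one transcript was tested directly, as the difference at the 3′-most minus that at the 5′-most probe. In 6 such pairs the 3′ probe had the larger value in all, with a median of 0.92, and 3 passed. The same test over 4261 pairs on the array was higher at the 3′ probe in 30.6%, positive in 75.8%, with a median of 0.47. For Lrrtm2 the 2 differences lay 1.05 ± 0.17 apart (95% interval 0.58 to 1.52, adjusted p = 0.0177). Nlgn3 at 3792 against 2953 gave 0.89 ± 0.22 (adjusted p = 0.0436), and Nrxn2 gave 0.82 ± 0.18 (adjusted p = 0.0357). The Nlgn3 probe at 6050, 2229 bases beyond 3792 on the chromosome, had the smaller difference of 0.11. It is named from another transcript and entered no pair. Lrrtm3, at 0.94 ± 0.29 (adjusted p = 0.0744), and Nrxn3 at 7861 against 330, at 1.01 ± 0.30 (adjusted p = 0.0698), missed the threshold. A second Nrxn3 transcript, with probes at 3096 and 3630, gave 0.50 with a 95% interval of -0.41 to 1.42. None of the 3 calls held when any of the 4 arrays was left out.

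**Figure D3:**
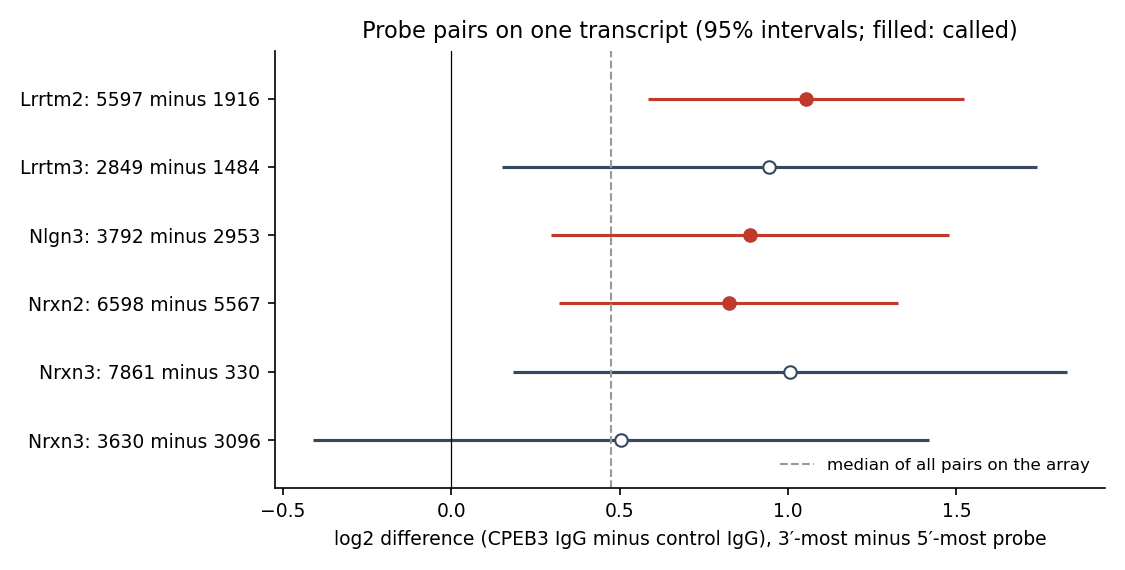
Difference (log2, CPEB3 IgG minus control IgG) at the 3′-most minus that at the 5′-most tested probe of each of the 6 transcripts, with 95% intervals, filled where called, and a dashed line at 0.47, the median of all pairs. All 6 points lie above 0, and the called pairs are Lrrtm2, Nlgn3 and Nrxn2.

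Probe brightness and base composition moved with the calls as well. Of the 10 probes of these genes with a mean level below 0, 2 were higher, against 8.75% of all tested probes of that brightness. From 0 to 2 it was 1 of 1 against 27.8%, from 2 to 4 it was 5 of 7 against 32.8%, and above 4 it was 3 of 4 against 28.1%. The share of all tested probes called lower rose with brightness too, from 16.5% below 0 to 28.1% above 4. Among probes on RefSeq mRNAs the share called higher went from 7.72% where under 20% of the bases were T to 36% where at least 35% were. In the first of these classes 2 of 3 probes of these genes were higher, and in the second 2 of 4. Nrxn2 at 6598 had 15% T, Lrrtm4 at 2734 had 25% and Nrxn3 at 7861 had 41.7%. Nlgn3 at 6050, which was not called, had 50%. The median was 30% over the 11 probes called higher, 30% over the 10 not called and 28.3% over all probes. The part of position, brightness and base composition in the differences was not tested.

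Polyadenylation element letters were searched on both strands of the 60-base probes, as TTTTAT and TTTTAAT, each of which contains a run of 4 T. TTTTAT occurred on the transcript strand in 3 of 23 probes of these genes and in 3.69% of all probes (5.24% on the other strand). It was in 1 of the 11 probes called higher, Lrrtm3 at 2849, and in 2 of the 10 not called, among them Nrxn3 at 2218. TTTTAAT was in 1 of the 23, Nrxn3 at 2218, and in 0.912% of all probes. Runs of at least 4 T were in 11 of 23 (47.8%) and in 30.2% of all probes, and on the other strand in 43.5% and 31.9%. In the 11 probes called higher they were in 45.5% on the transcript strand and 72.7% on the other. Among RefSeq probes TTTTAT was in 8.97% of those called higher, 3.47% of those not called and 1.8% of those called lower. A probe shows 60 bases of an mRNA, and the rest of each transcript was not searched.

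**Figure D4:**
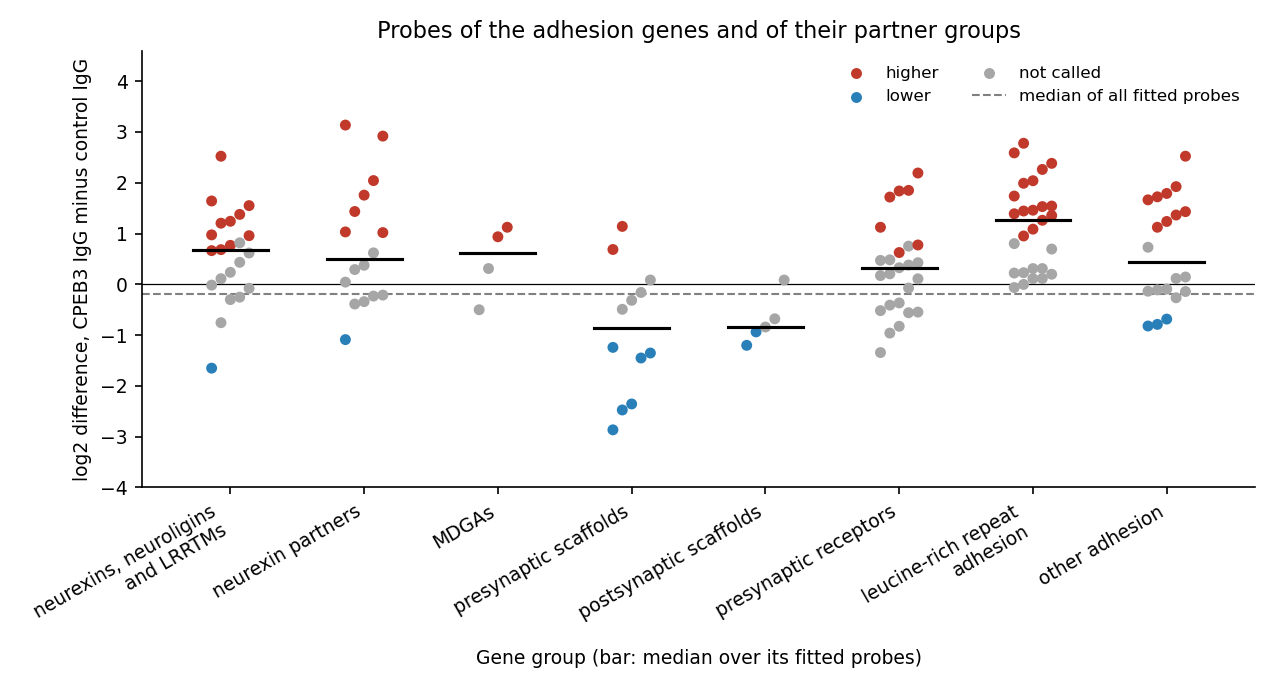
Difference (log2, CPEB3 IgG minus control IgG) of each tested probe of the 9 genes and of 7 role groups of partner genes, 1 point per probe, red where called higher, blue where lower and grey where not called, with a bar at the median of each group. The group of other leucine-rich repeat proteins has the highest median, at 1.26, and both scaffold groups have medians below 0, at -0.87 and -0.84.

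Partners of these proteins were taken as a list of 64 genes in 7 roles, with 115 probes of which 109 were tested. Of these, 43 (39.4%) were higher and 12 (11%) lower, with a median difference of 0.31, against 15.8%, 18.9% and -0.19 over all tested probes. By gene, 35 of the 64 had a higher probe and 10 a lower one. Several probes were tested for 29 of them, and no share of genes over the array was computed for comparison. The roles differed in their counts, and no test between them was made. Probes of the roles also lie at different positions, and the shares they are set against are of probes at all positions. Of RefSeq probes, 8.7% were higher and 32.7% lower within the first 1000 bases, against 45.7% and 5.41% beyond 6000. The part of position in the role counts was not tested.

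Other leucine-rich repeat adhesion proteins of synapses had 16 of 27 probes higher and 0 lower, with a median difference of 1.26. Lrfn3, a SALM family protein, had a difference of 2.78 ± 0.17, or 6.86-fold (adjusted p = 0.00527), and Slitrk1, which binds presynaptic receptor phosphatases, 2.59 ± 0.16, or 6.02-fold (adjusted p = 0.00527). Among secreted or postsynaptic partners of neurexins, 7 of 16 were higher and 1 lower. Clstn3, for calsyntenin 3, differed by 3.14 ± 0.26, or 8.79-fold (adjusted p = 0.00534), and Dag1, for dystroglycan, by 2.92 ± 0.19, or 7.57-fold (adjusted p = 0.00527). The lower probe belonged to Nxph4, a neurexophilin, at -1.09 ± 0.17, while the Nxph4 probe at 1476 was not called, at -0.23. Of the MDGA proteins, which bind neuroligins and block their contact with neurexins, 2 of 4 probes were higher, both of Mdga2, and the brighter of them had a difference of 0.94 ± 0.16.

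The genes listed as presynaptic receptors of other postsynaptic adhesion proteins, a placement not examined here, had 7 of 25 probes higher and 0 lower. Their largest calls were Lphn2, a latrophilin, at 2.19 ± 0.25 and Tenm4, a teneurin, at 1.85 ± 0.20. The Tenm4 value is of a probe at 13487 of an Ensembl transcript. Tenm4 probes at 203, 5559 and 10571 were not called, at -0.41, -0.83 and 0.47. Other synaptic adhesion genes had 9 of 20 higher and 3 lower, with Cntnap1, the contactin-associated protein of paranodes, at 2.52 ± 0.15 and L1cam at -0.79 ± 0.16.

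The last roles are scaffold proteins that bind the cytoplasmic tails. For presynaptic scaffolds of neurexins, 2 of 12 probes (16.7%) were higher and 6 (50%) lower, with a median of -0.87, against 15.8%, 18.9% and -0.19 over all tested probes. The probe of Lin7b lies at position 277, and 32.7% of RefSeq probes within the first 1000 bases were lower. Lin7b itself, a subunit of the complex of CASK, MINT and LIN7 proteins, fell by 2.47 on the log2 scale (adjusted p = 0.00535), while its paralogue Lin7c was higher at 1.14 ± 0.18 (adjusted p = 0.0138). Sdcbp, for syntenin, was lower at -2.87 ± 0.76 (adjusted p = 0.0484) at position 1716, with an SD of 1.46 between its control arrays. Its probe at 275 was lower too, at -2.36, and the one at 2493 was not called, at 0.09. Cask was the one gene of the list called both ways. Its probe at 1551 was lower, at -1.35, and its probe at 4210 was higher, at 0.69. The Cask probe at 2428 was called lower too, but was not well above background on either CPEB3 IgG array. Its measured mean was 2.36-fold lower, a value that sets no minimum. A Cask probe at 3854 was not called, at -0.16. For postsynaptic scaffolds of neuroligins, 0 of 5 probes were higher and 2 were lower. A lower probe was that of Gphn, for the inhibitory synapse scaffold gephyrin, at -1.20 ± 0.16 (adjusted p = 0.00958).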

How the data were processed

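Per the file headers, the deposited values are 1-colour spot intensities from Agilent Feature Extraction 10.5.1.1, with the background subtracted within each array and no scaling between arrays, and coordinates on mm9. Control spots and outlier spots were left out, spots of one probe were averaged, and log2 of the deposited processed intensity minus the 75th percentile over the distinct probes of the array (506.8 and 353.3 for CPEB3 IgG, 442.9 and 424.7 for control IgG) was fitted per probe, without a block, by lmFit and eBayes of limma 3.58.1 (R 4.3.3). Those well above background on 2 or more arrays entered (40632), and calls were made at a Benjamini-Hochberg adjusted p of 0.05. Pairs of probes were fitted the same way on their difference within each array. A bound uses, per array of the dim group, the higher of the probe's own signal and the lowest signal well above background. For the Nlgn1 and Cask probes that were dim with CPEB3 IgG it equalled the measured value and set no minimum. The number of arrays limits the precision.

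Gene names are those of the files, and the 17 RefSeq accessions among the member probes all matched the same symbol in a RefSeq table of GRCm38.p6, used for names only. The members and the partner and marker lists were chosen with earlier results of these data known. All member probes are named. Of each partner role, the rule took up to 2 genes with the largest called differences in each direction, by their brightest called probe, and the text gives a selection of them. Further Cask, Sdcbp, Tenm4 and Nxph4 probes were chosen after their values were seen. Sequences shown are the 5 called probes with the largest differences and the uncalled probes of the same genes, without those on 1 chromosome that is not reported as sequence. Some items that these rules take are not reported here. Alternatives were 4 other scalings, normexp background correction (offset 50), 2 other filters, an intensity trend in the variance prior, the replicate number as a block, leaving out each array, and 2 stricter thresholds. Replicate arrays shared 0 identical spot values.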

Additional observations from a re-analysis of the deposited data

How the results depend on the processing

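Of the member probes, 11 were called higher and 1 lower. Higher calls were 6 with no scaling, 6 without a filter on dim probes, 3 at an adjusted p of 0.01 and 6 with a 2-fold minimum. With 1 array left out they ranged from 1 to 7 and lower calls from 0 to 1. Lower calls were 0 under spike-in scaling, with the filter on all 4 arrays and at an adjusted p of 0.01, and 2 with the intensity trend. Over the partner genes, 43 higher and 12 lower calls became 23 and 5 at an adjusted p of 0.01. Lower calls there were 3 under spike-in scaling and 6 without the filter. Leaving out arrays gave partner ranges of 23 to 36 higher and 4 to 7 lower. Over all probes, 6423 were higher and 7691 lower. Higher calls were 3938 with no scaling and 2735 at an adjusted p of 0.01. Lower calls were 1140 under spike-in scaling, 4702 without the filter and 2015 at an adjusted p of 0.01. Left-out arrays gave 2348 to 4680 higher and 2077 to 5373 lower. Spike-in scaling shifted the median of all probes by 0.64 and made 84.7% of calls higher ones, against 45.5% in the main setting; quantile and median scaling shifted it by 0.18 and 0.12. The 3 pairs higher at the 3′ probe were 1 under quantile scaling, 5 with normexp, 1 without the filter, 5 with the replicate block and 0 without any 1 array. The replicate numbers are not stated to pair the arrays (correlation of same-numbered deviations 0.36), and with the replicate block 11 probes were higher and 1 lower, as without it.

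Small differences changed sign. Lrrtm2 at 1916 became 0.11 under quantile, 0.039 under median and 0.57 under spike-in scaling, and ranged from -0.20 to 0.044 with 1 array left out. Nrxn3 at 2218 became 0.010, 0.10 and 0.63 under those scalings and ranged from -0.25 to 0.22 with 1 array left out. Nrxn3 at 1098 and 3630 became 0.34 and 0.39 under spike-in scaling. The cause of these changes was not tested. Taking the 75th percentile over all spots, an alternative chosen after seeing the data, left 11 member probes higher and 1 lower. The size of a difference is uncertain for probes near background, and 2 arrays per group limit every call.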
